A study of Homo sapiens with 2 samples.

Results

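Claudin, keratin and desmosome genes were examined in RNA sequencing of the H9 line in an undifferentiated state, as human embryonic stem cells (hESC), and after its differentiation to neural precursor cells (NPC). H9 is an established pluripotent line, and the NPC were obtained by co-culture with MS5, a mouse stromal feeder line. There was 1 library in each group, so values describe these 2 libraries and no p-value was computed. Members were the gene symbols of the CLDN, KRT, DSG, DSC, PKP and TJP families together with DSP, JUP, OCLN, EPCAM, PPL and EVPL. The rule found 100 members among 24462 symbols, namely 24 claudins, 56 keratins, 15 desmosome genes and 5 further junction genes (among them TJP1, OCLN and EPCAM). One of the keratin symbols, KRT42P, is a pseudogene.

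These genes build the contacts and the scaffold of epithelial sheets. Claudins are the membrane proteins that seal tight junctions or form ion channels in them, and the TJP (ZO) proteins tie them to actin. Desmosomes join neighbouring cells through the cadherins of the DSG and DSC families, which bind plakoglobin (JUP), plakophilins (PKP) and desmoplakin (DSP), and desmoplakin anchors the keratin filaments. Keratin filaments form from a type I and a type II keratin, and KRT8 with KRT18 is the usual combination of simple epithelia. Pluripotent human stem cells grow as an epithelium. Neuroepithelial cells lose tight junctions during neural development and use vimentin and nestin as their intermediate filaments.

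Counted reads numbered 19686728 for hESC and 24065750 for NPC, of which members took 0.369% and 0.0793%. Levels below are CPM, that is counts scaled to the effective library size after edgeR's TMM scaling. A gene was called measured at 5 CPM or more in either library, which is about 86.9 hESC reads or 136 NPC reads. A measured gene was called lower or higher when the near bound of the 95% counting interval of its NPC over hESC ratio was at least 2-fold. These intervals cover counting error only and hold no variation between cultures. In bulk RNA, fewer cells of a type and less RNA per cell cannot be told apart.

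Most measured members were lower in NPC, and none was called higher. Of 100 members, 26 were measured, and 18 of these were lower, 0 higher and 8 neither. The same rule called 19.8% of all 13535 measured genes lower and 19.6% higher. The median log2 ratio was -3.09 for the 26 measured members and -0.09 for all measured genes. Of the 26, 10 reached 5 CPM in the hESC library alone and so could not have been called higher. The other 16 reached it in both libraries, and of these 9 were lower and 7 neither, against 17.2% lower and 12.8% higher among 10804 genes at 5 CPM in both. Summed over all 100 members, filter or not, there were 72571 reads in hESC and 19073 in NPC, a 5.95-fold lower level (5.86 to 6.05).

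**Figure D1:**
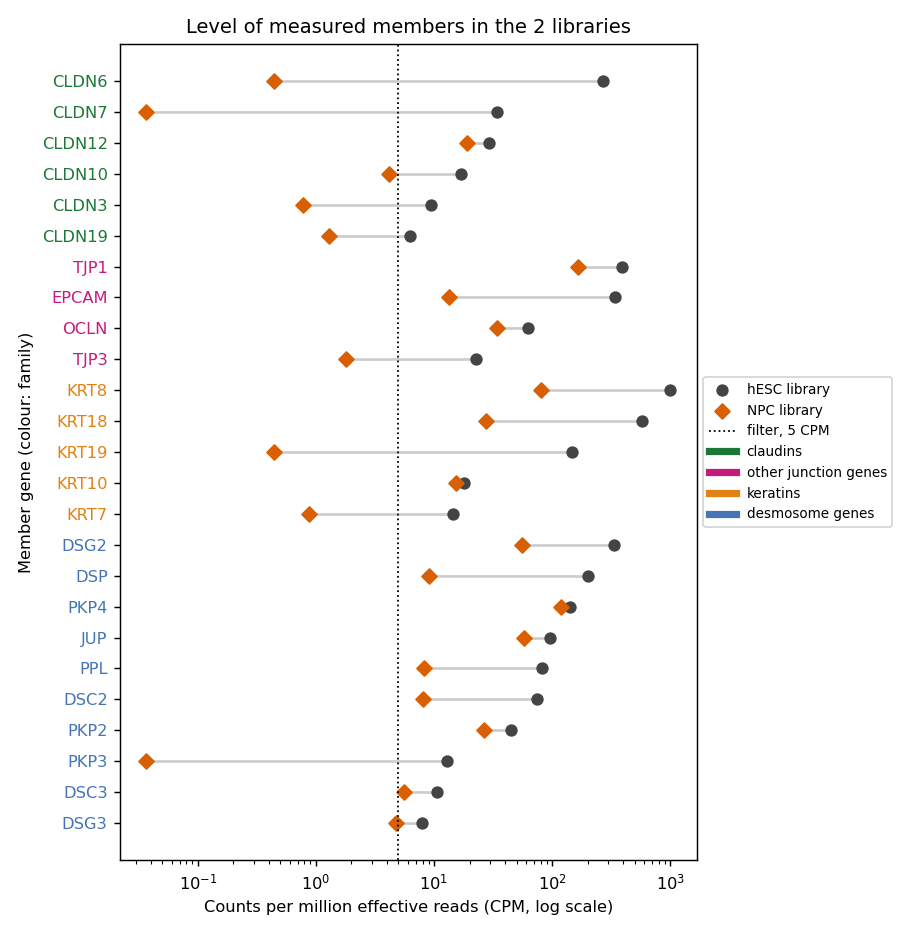
CPM (log axis) of 25 of the 26 measured members in the hESC library (circles) and the NPC library (diamonds), with gene names coloured by family and the 5 CPM filter dotted. With TMM scaling every NPC value shown lies left of its hESC value (KRT10 and PKP4 turn with the library total), from KRT8 at 1004 and 80.5 CPM to CLDN7 at 34.3 and 0.0368 CPM.

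The promoters of 4 lower members are shown with the E-box CACCTG marked. This is a motif that the ZEB and SNAI repressors of epithelial genes can bind, and it is not theirs alone. Values of these repressors are given with the regulator genes below. In RefSeq (GRCh38.p14) 66 of the 100 members and 17 of the 26 measured members had a promoter entry. CLDN19, EPCAM, KRT18, KRT19, KRT7, PKP2, PKP3 and PPL were among the measured members without an entry. The motif CACCTG, or CAGGTG on the other strand, was searched in the 250 bases before each start. It was in 19 of 86 member windows (22.1%), against 17.5% of all 35116 windows of that length. Of the windows of members called lower, 6 of 17 held it, as did 3 of 10 windows of measured members not called and 10 of 59 windows of members below the filter. Some genes have several windows. Counted by gene, the motif was in 6 of 10, 2 of 7 and 10 of 49 of these members, against 5635 of all 27305 symbols with a window. Capitals mark the motif in the sequences below, which run 5′ to 3′ on the strand of the gene. CLDN6 and CLDN7 are shown as the claudins with the largest differences, and DSP and DSG2 as the desmosome genes with most hESC reads among those called lower.

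CLDN6 (chr16:3018184-3018433, minus strand): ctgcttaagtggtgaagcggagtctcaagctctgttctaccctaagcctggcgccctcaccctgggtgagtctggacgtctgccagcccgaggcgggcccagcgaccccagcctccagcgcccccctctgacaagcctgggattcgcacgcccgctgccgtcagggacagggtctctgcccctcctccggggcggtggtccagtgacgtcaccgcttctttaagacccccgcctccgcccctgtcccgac
CLDN7 (chr17:7262479-7262728, minus strand): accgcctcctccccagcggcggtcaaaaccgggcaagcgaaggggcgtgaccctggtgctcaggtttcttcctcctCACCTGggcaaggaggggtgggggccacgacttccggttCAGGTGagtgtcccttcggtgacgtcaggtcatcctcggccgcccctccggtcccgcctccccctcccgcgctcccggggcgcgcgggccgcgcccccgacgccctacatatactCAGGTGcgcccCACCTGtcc
DSP (chr6:7541421-7541670, plus strand): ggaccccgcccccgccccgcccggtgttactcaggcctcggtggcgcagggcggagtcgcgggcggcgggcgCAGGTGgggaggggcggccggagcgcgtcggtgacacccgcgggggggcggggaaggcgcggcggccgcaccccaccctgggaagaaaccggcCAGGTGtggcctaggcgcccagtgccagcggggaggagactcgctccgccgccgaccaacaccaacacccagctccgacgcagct
DSG2 (chr18:31497927-31498176, plus strand): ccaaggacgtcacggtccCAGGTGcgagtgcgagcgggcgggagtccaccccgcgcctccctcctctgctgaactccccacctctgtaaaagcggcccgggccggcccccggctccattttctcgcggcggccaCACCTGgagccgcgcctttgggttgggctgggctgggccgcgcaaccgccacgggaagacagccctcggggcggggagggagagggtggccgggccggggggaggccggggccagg

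The CLDN7 window held 4 matches, the first bases of which lie 174, 135, 20 and 9 bases before the start. It is the window with most matches of the 2 listed for CLDN7, and the other had 0. DSP held 2 matches, at 178 and 85 bases, and DSG2 held 2, at 232 and 116 bases. CLDN6 held 0 in this window, and so did KRT8. Among members that were not called, JUP held 2 matches in 1 of its windows and OCLN held 1 in each of its 2 windows. A palindromic site of the epithelial GRHL factors, AACCGGTT, was in 0 of the 86 member windows and in 0.117% of all windows. A match is a run of letters and not a measured site.

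Of 24 claudins, 6 were measured, and 5 of these were lower in NPC, against 19.8% of all measured genes. All 5 reached 5 CPM in the hESC library alone and so could not have been called higher. CLDN12, measured in both libraries, was not called. CLDN6, a claudin of early embryonic epithelia and pluripotent cells, had 4670 reads (269 CPM) in hESC and 12 reads (0.441 CPM) in NPC. It was 585-fold lower (348 to 1179). CLDN7, which binds EPCAM at the lateral membrane, had 596 hESC reads and 1 NPC read. It was 622-fold lower (167 to 36901), and the far bound rests on that 1 read. The intervals of CLDN6 and CLDN7 overlap, so their order is not resolved. Both genes have exons that overlap a gene on the other strand, TNFRSF12A for CLDN6 (323 and 46 reads) and ELP5 for CLDN7 (474 and 572 reads), and the strand setting of the counting is not given in the sources used here.

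The other lower claudins had fewer reads. CLDN3, a sealing claudin, went from 9.38 CPM in hESC to 0.772 CPM in NPC and was 11.9-fold lower (7.69 to 20.2). CLDN19, known from the kidney tubule and the retinal pigment epithelium, had 6.27 and 1.29 CPM, a 4.83-fold lower level (3.30 to 7.35). CLDN10, which forms ion channels in the kidney, had 16.9 and 4.19 CPM and was 4.01-fold lower (3.23 to 5.04). These 3 stayed above 20 reads in NPC, unlike CLDN6 and CLDN7. Part of CLDN10 overlaps DZIP1 on the other strand, with 1612 reads in hESC and 4818 in NPC.

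CLDN12 was the measured claudin that was not called. This claudin lacks the carboxy-terminal motif by which most others bind ZO proteins. It had 510 reads (29.3 CPM) in hESC and 514 reads (18.9 CPM) in NPC, a 1.55-fold lower level (1.37 to 1.76). CLDN12 made up 49.2% of the claudin reads in NPC (46.1 to 52.3, exact binomial) against 7.61% in the hESC library (6.99 to 8.27). CLDN6 made up 69.7% of hESC claudin reads (68.6 to 70.8) and 1.15% of NPC claudin reads (0.595 to 2). CLDN12 shares exon sequence on its own strand with CDK14 and GTPBP10 in GENCODE 29, so its reads may be divided among them. Without CLDN6, the remaining claudins summed to 2032 hESC and 1033 NPC reads, a 3.08-fold lower level (2.85 to 3.32).

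The 18 claudins below the filter had at most 92 reads, and some of them had more reads in NPC. CLDN18, a claudin of lung and stomach, had 5 hESC and 46 NPC reads, a ratio of 5.40 (2.35 to 19). CLDN15 and CLDN2 form cation channels. CLDN15 had 24 and 92 reads, a ratio of 2.41 (1.55 to 4.02), and CLDN2 had 2 and 22 reads, a ratio of 5.75 (1.73 to 61.7). In the other direction, CLDN23 had 61 and 4 reads and was 21.4-fold lower (8.86 to 90.4). CLDN11, a claudin of myelin and Sertoli cells, had 77 and 39 reads, and CLDN4, a sealing claudin, had 39 and 17. CLDN22 had 48 and 30 reads, CLDN20 had 47 and 36, and CLDN1, a main sealing claudin of the epidermis, had 27 and 24. Of the remaining 9, CLDN17, CLDN25 and CLDN8 had 0 reads in both libraries and 6 had 19 or fewer in each. CLDN5, the claudin of the blood-brain barrier endothelium, was among them with 13 and 19 reads. Of the listed endothelial genes, PECAM1 had 4 and 10 reads, CDH5 13 and 9, and VWF 8 and 8. TEK had 176 and 154 reads, and TIE1 had 140 and 2. CLDN2 is also known from the choroid plexus, whose marker TTR had 2 and 146 reads and AQP1 0 and 61. FOLR1, also listed for it, had 9 and 19 reads, and KL had 0 and 5. Of 9 endothelial and choroid plexus genes 3 were measured, with 1 lower and 1 higher. Of 6 myelin and oligodendrocyte genes 2 were measured, with MBP lower. The shares among all measured genes were 19.8% lower and 19.6% higher. The part of such cells in the claudin values was not tested.

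Of the junction genes outside the claudins, EPCAM was much lower and OCLN was not called. EPCAM, the epithelial adhesion molecule, had 340 CPM in hESC and 13.5 CPM in NPC and was 25.2-fold lower (22.7 to 28.1). OCLN, the gene of the tight junction protein occludin, had 62.1 CPM and 34.2 CPM. Its level was 1.81-fold lower (1.66 to 1.98) and was not called.

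The ZO scaffold genes TJP1 and TJP3 were lower, by different amounts. TJP1 (ZO-1), which also sits at adherens junctions of neuroepithelium, had 390 CPM in hESC and 166 CPM in NPC. It was 2.34-fold lower (2.25 to 2.43). With the library total in place of TMM its log2 ratio was -0.87 instead of -1.23 and it was not called. TJP3 (ZO-3), found in epithelia, had 22.5 and 1.8 CPM and was 12.4-fold lower (9.26 to 17.2). The intervals of these genes do not overlap.

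**Figure D2:**
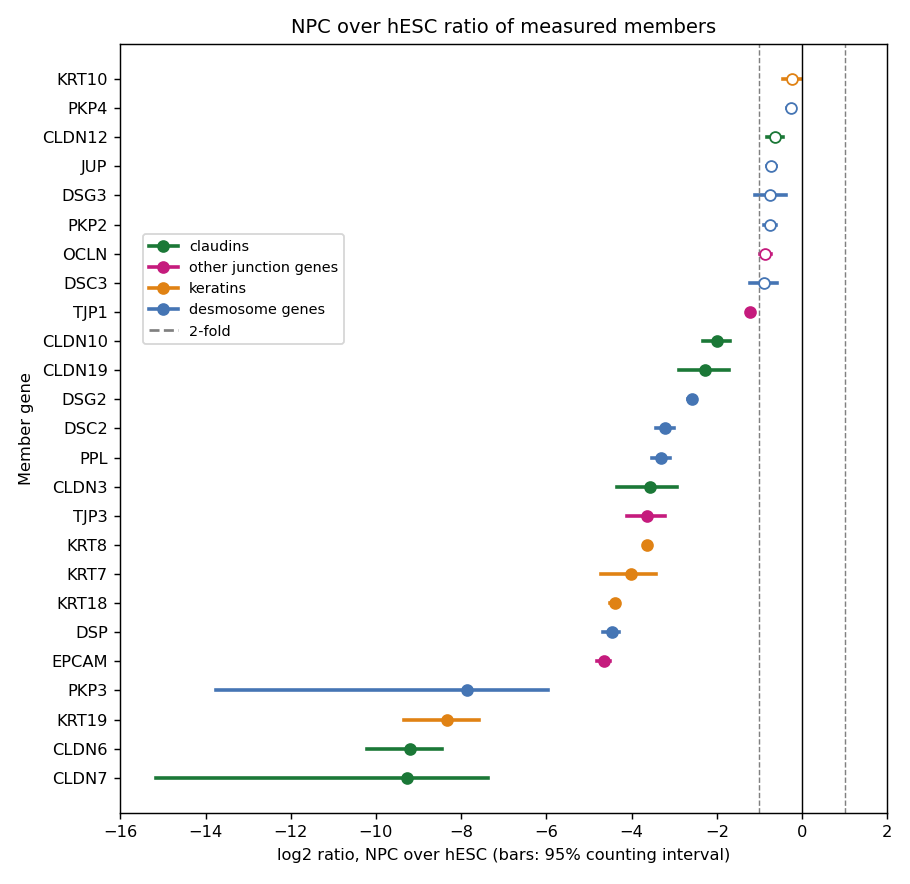
Log2 ratio, NPC over hESC, of 25 of the 26 measured members, each with its 95% counting interval, filled where called and open where not, coloured by family; dashed lines mark 2-fold. The 8 open points lie between -0.90 (DSC3) and -0.23 (KRT10), and CLDN7, CLDN6, KRT19 and PKP3 lie below -7.

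Keratin RNA came from few genes in both libraries. Of 56 keratin symbols, 5 were measured, 25 had 0 reads in both libraries and 26 lay in between. KRT8, the type II keratin of simple epithelia, had 17444 reads (1004 CPM) in hESC and 2191 reads (80.5 CPM) in NPC. It was 12.5-fold lower (11.9 to 13.0). KRT18, its type I partner, had 10032 and 746 reads (577 and 27.4 CPM) and was 21.0-fold lower (19.5 to 22.7). KRT8 and KRT18 together made up 89.5% of keratin reads in hESC (89.2 to 89.8) and 85.2% in NPC (84.0 to 86.4). Reads of both are uncertain because of near-identical copies. GENCODE 29 names 50 KRT8 and 67 KRT18 pseudogenes, and the count files have a row for 1 of each, with 47 and 20 reads for the KRT8 copy and 6 and 5 for the KRT18 copy.

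Levels per transcript length put KRT8 and KRT18 among the more abundant messages of the hESC library. Per kilobase of the longest transcript, KRT8 had 351 CPM in hESC and 28.1 in NPC, rank 206 and rank 1881 of 21875 symbols with a length. KRT18 had 276 and 13.1 CPM per kilobase, rank 256 and rank 4168. The KRT8 level per kilobase was 1.27 times that of KRT18 in hESC and 2.14 times in NPC. The KRT8 and KRT18 intervals of the NPC over hESC ratio do not overlap. KRT8 and KRT18 are neighbours on chromosome 12 and have exons that overlap on opposite strands.

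KRT19 differed most among the measured keratins. This small type I keratin of simple epithelia and some progenitors had 2569 reads (148 CPM) in hESC and 12 reads (0.441 CPM) in NPC. It was 322-fold lower (191 to 649). Its share of keratin reads was 8.37% in hESC (8.06 to 8.68) and 0.348% in NPC (0.180 to 0.607). Per kilobase KRT18 exceeded KRT19 2.60 times in hESC and 41.4 times in NPC. KRT7, a type II keratin of ductal and glandular epithelia, had 14.5 and 0.882 CPM and was 16.1-fold lower (10.8 to 26.1). With KRT7 and KRT19 added to KRT8 and KRT18, all 4 measured keratins of simple epithelia were lower, against 19.8% of all measured genes. KRT20, the fifth on that list, had 0 reads. KRT7 and KRT19 reached 5 CPM in hESC alone, so for these 2 no higher call was possible.

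KRT10 was the measured keratin that was not called. It is a type I keratin best known from the upper epidermis, and its type II partner KRT1 had 0 reads in both libraries. KRT10 had 311 reads (17.9 CPM) in hESC and 415 reads (15.3 CPM) in NPC, a 1.17-fold lower level (1.01 to 1.36). With the library total its direction turned (log2 ratio 0.13), as it did with the length trend removed (0.08). It made up 1.01% of keratin reads in hESC (0.904 to 1.13) and 12% in NPC (11 to 13.2). TMEM99 overlaps it on the other strand, with 107 and 90 reads.

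Apart from KRT10, the keratins of stratified epithelia and hair were close to 0 in both libraries. The basal epidermal genes KRT5 and KRT14 had 5 and 2 hESC reads and 2 and 1 NPC reads. KRT15 had 1 and 0 reads. KRT17, of skin appendages, had 12 and 8 reads, and KRT80 had 12 and 16. KRT222 alone among the keratins below the filter reached 20 reads, with 29 and 16. The 17 hair keratins summed to 5 hESC and 6 NPC reads. A count of 0 allows up to 0.173 CPM in hESC and 0.110 CPM in NPC.

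**Figure D3:**
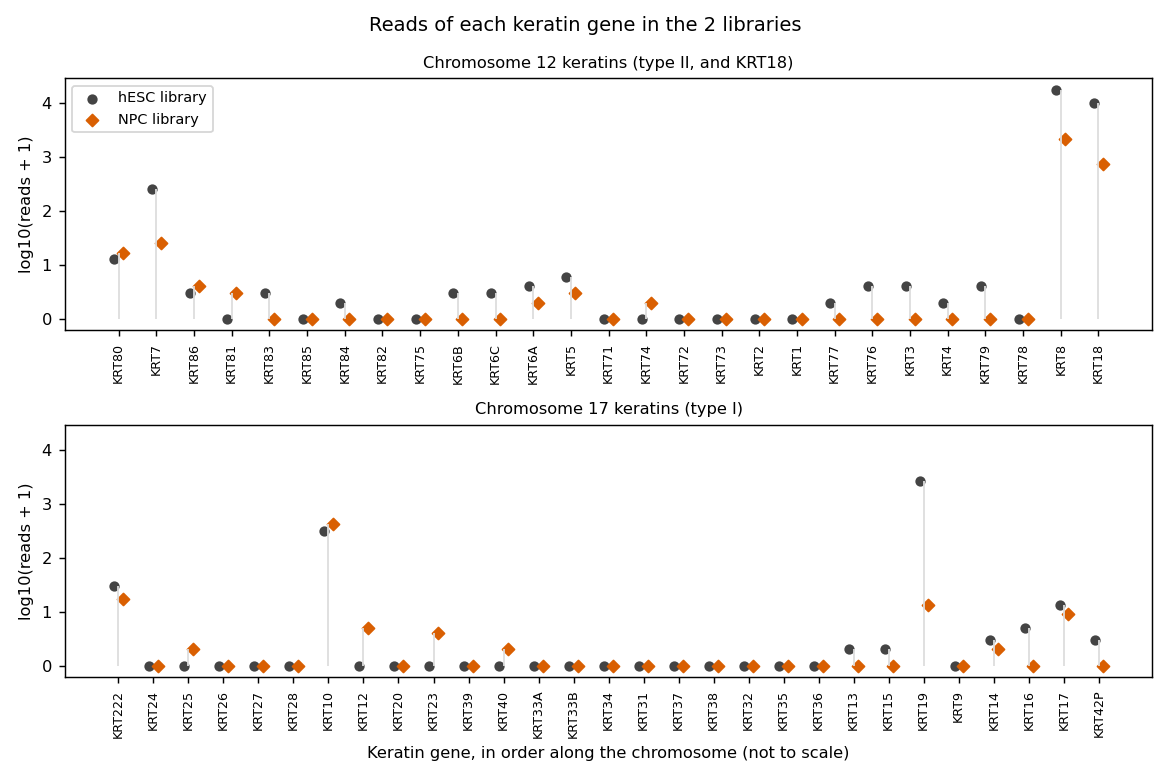
Reads of the 56 keratin symbols, as log10(reads + 1), in their order along chromosome 12 (27 genes) and chromosome 17 (29 genes); circles are the hESC and diamonds the NPC library. In each cluster 3 genes reach 20 reads, KRT7, KRT8 and KRT18 on chromosome 12 and KRT222, KRT10 and KRT19 on chromosome 17.

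Some neighbouring genes of these clusters differed widely in level. KRT15 and KRT9, on either side of KRT19 among coding genes, had 1 and 0 hESC reads against 2569. CLDN9, beside CLDN6 on chromosome 16, had 7 hESC and 3 NPC reads against 4670 and 12. CLDN4, next to CLDN3 on chromosome 7, had 39 hESC reads against 163, but 17 NPC reads against 21. The neighbours KRT8 and KRT18 were both high in hESC, with 17444 and 10032 reads. Neighbours were taken from RefSeq (GRCh38.p14).

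Desmosome genes were lower in part. Of 15, 10 were measured, and 5 were lower and 5 neither, against 19.8% lower and 19.6% higher among all measured genes. PKP3 (lower) and DSG3 (neither) reached 5 CPM in hESC alone. Among the cadherins, DSG2, the widespread desmoglein of simple epithelia and heart, had 5801 reads (334 CPM) in hESC and 1506 reads (55.4 CPM) in NPC and was 6.03-fold lower (5.69 to 6.38). DSC2, the corresponding desmocollin, had 74.3 and 8.01 CPM and was 9.25-fold lower (8.02 to 10.7). The DSG2 and DSC2 intervals do not overlap. DSG2 had 9.50 times the level of DSC2 per kilobase in hESC and 14.6 times in NPC. DSG2 overlaps DSG2-AS1 on the other strand, which had 695 and 201 reads.

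The cadherins of stratified epithelia were near the filter or below it. DSC3 had 10.5 and 5.62 CPM, a 1.87-fold lower level (1.5 to 2.34), and DSG3 had 7.94 and 4.74 CPM, 1.67-fold lower (1.31 to 2.15). Neither was called. DSG1 had 3 and 0 reads, DSC1 had 6 and 12, and DSG4 had 0 in both libraries. DSC3, DSC2 and DSC1 lie side by side on chromosome 18, as do DSG4, DSG3 and DSG2, and in each row DSC2 or DSG2 had the most reads in hESC and in NPC.

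The plakins that link the junction to filaments were lower. DSP, the gene of desmoplakin, had 3507 reads (202 CPM) in hESC and 247 reads (9.08 CPM) in NPC. It was 22.2-fold lower (19.5 to 25.4). PPL, the gene of periplakin, had 82.0 and 8.31 CPM and was 9.85-fold lower (8.57 to 11.4). EVPL, the gene of envoplakin, was below the filter with 56 and 6 reads, 13.6-fold lower (6.31 to 41.5).

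Genes of the armadillo proteins of the desmosome differed from each other. JUP, the gene of plakoglobin, which also serves in adherens junctions, had 1666 reads (95.8 CPM) in hESC and 1583 reads (58.2 CPM) in NPC. Its level was 1.65-fold lower (1.54 to 1.76) and not called. Per kilobase, JUP stood at 1.33 times DSP in hESC and at 18.0 times DSP in NPC. PKP4, a plakophilin relative found mainly at adherens junctions, had 142 and 118 CPM, 1.20-fold lower (1.14 to 1.27), and with the library total its log2 ratio was 0.09. PKP2, the plakophilin of simple epithelia and heart, had 44.8 and 26.6 CPM, 1.68-fold lower (1.52 to 1.87).

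The other plakophilins were nearly without NPC reads. PKP3, found in most epithelia, had 224 hESC reads and 1 NPC read, and was 234-fold lower (62.3 to 13907). PKP1, of stratified epithelia, was below the filter with 39 and 0 reads, 20.3-fold lower against a floor of 3 reads in NPC, while the near bound of its counting interval was 15.8-fold. PKP4 made up 70.4% of plakophilin reads in hESC (68.8 to 71.9) and 81.6% in NPC (80.4 to 82.8).

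Genes that share these structures were read from lists of related genes. Of 28 tight junction partners and polarity genes, 27 were measured, and 10 were lower, 7 higher and 10 neither, with a median log2 ratio of -0.13. The same rule called 19.8% of all measured genes lower and 19.6% higher. Of the 10 lower genes, 4 reached 5 CPM in hESC alone, CRB3 among them, and could not have been called higher. Of the 7 higher genes, 2 reached it in NPC alone, ILDR2 and CRB1, and could not have been called lower. F11R, which encodes junctional adhesion molecule A, was 22.2-fold lower (19.1 to 26.1), and the paracingulin gene CGNL1 was 20.5-fold lower (18.2 to 23.2). CRB3, the epithelial Crumbs gene, had 90 hESC reads and 1 NPC read, 94.4-fold lower (24.6 to 5624). ILDR2 was 65.3-fold higher (48.0 to 94.2) and JAM2 11.6-fold higher (10.1 to 13.4). CRB1, a Crumbs gene of neural tissue, had 0 and 265 reads and was 56.4-fold higher against a floor of 3 hESC reads, while the near bound of its counting interval was 45.6-fold. The apical polarity genes PARD3 (144 and 130 CPM) and MPP5 (54.1 and 58.1 CPM) were not called, nor were PRKCZ, PARD6A and PARD6G. Other polarity genes of the list were called. PRKCI was 2.98-fold lower (2.80 to 3.17), PARD6B 2.51-fold lower (2.05 to 3.09) and INADL 3.45-fold lower (3.16 to 3.77). CRB2 was 5.90-fold higher (4.80 to 7.40) and MPDZ 2.15-fold higher (2.05 to 2.26).

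Adherens junction genes went both ways as well, with 4 lower, 3 higher and 6 neither of 13 measured (median log2 ratio -0.06). Among all measured genes 19.8% were lower and 19.6% higher. E-cadherin (CDH1) was 350-fold lower (243 to 546) and P-cadherin (CDH3) 10.3-fold lower (9.41 to 11.2). CDH1 reached 5 CPM in hESC alone and could not have been called higher. VCL, the gene of vinculin, was 3.76-fold lower (3.66 to 3.86). N-cadherin (CDH2) had 122 and 1359 CPM, a level 11.2 times higher (10.7 to 11.7). The catenin genes CTNNB1 (277 and 308 CPM) and CTNNA1 (588 and 565 CPM) were not called. CTNNA2, the neural alpha-catenin, was 8.36-fold higher (7.26 to 9.73), and CTNND2, the neural delta-catenin, 4.02-fold higher (3.71 to 4.38).

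Intermediate filament genes other than keratins were mostly not called, with 1 lower, 3 higher and 8 neither of 12 measured. Most of all measured genes were not called either, with 19.8% lower and 19.6% higher. VIM, the gene of vimentin, had 237 CPM in hESC and 3291 CPM in NPC, 13.9-fold higher (13.4 to 14.3). SYNM, the gene of synemin, was 4.21-fold higher (3.53 to 5.09) and the neuronal filament gene INA 2.52-fold higher (2.35 to 2.71), while NEFH was 3.52-fold lower (2.88 to 4.33). All keratins together had 1766 CPM in hESC and 127 CPM in NPC, 13.9-fold lower (13.5 to 14.4). Of 8 measured hemidesmosome and plakin genes, 2 were lower, 1 higher and 5 neither. EPPK1, the gene of epiplakin, was 5.08-fold lower (4.20 to 6.22) and DST, the gene of dystonin, 2.20-fold higher (2.13 to 2.26). Of 12 cornified envelope genes 1 was measured, CNFN, 14.2-fold lower (8.91 to 25.1), and 8 had 0 reads in both libraries, among them IVL, LOR and FLG.

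**Figure D4:**
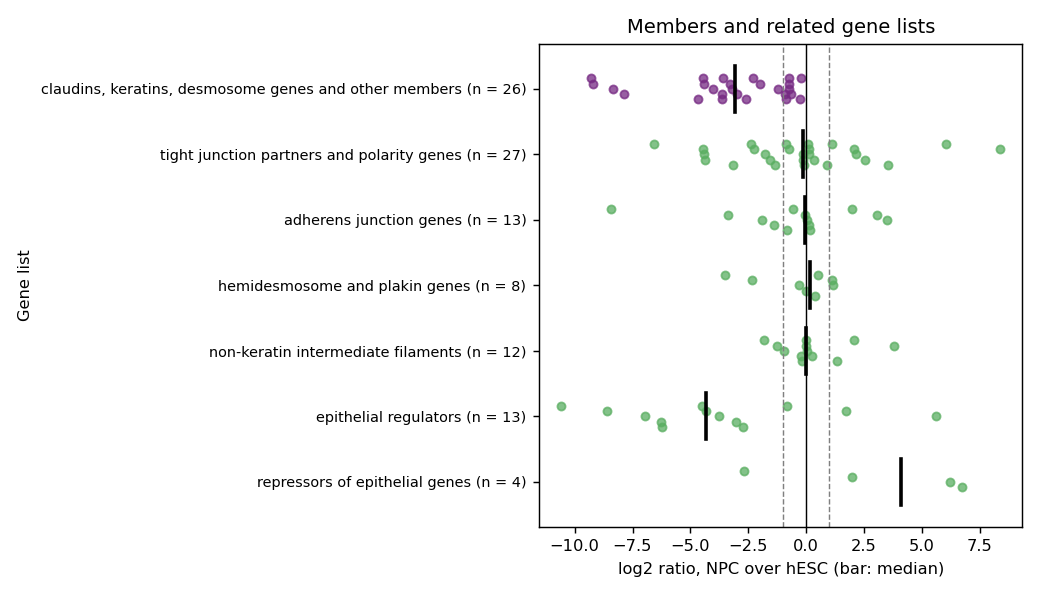
Log2 ratios, NPC over hESC, of the 26 measured members (top row) and of the measured genes of 6 related lists, with a bar at each median; dashed lines mark 2-fold. With TMM scaling the members lie left of 0 (KRT10 and PKP4 turn with the library total), and the tight junction partners and adherens junction genes spread to both sides around medians of -0.13 and -0.06.

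Regulators of epithelial genes were read beside the members. Of 13 measured genes of the epithelial list, 10 were lower, 2 higher and 1 neither. For this list and the repressors below, the shares among all measured genes were 19.8% lower and 19.6% higher. Of the 10 lower genes, 9 reached 5 CPM in hESC alone and could not have been called higher. GRHL2, a factor that maintains epithelial junction genes, had 355 and 7 reads and was 74.2-fold lower (38.1 to 199). The splicing factor gene ESRP1 was 1543-fold lower (615 to 8731) and ST14, which encodes the protease matriptase, 395-fold lower (157 to 2235). SPINT1, which encodes an inhibitor of matriptase, was 124-fold lower (87.8 to 187). Both higher genes, TFAP2A at 49.4-fold (23.1 to 168) and KLF5 at 3.27-fold (2.43 to 4.56), reached it only in NPC, so a lower call was not possible for them. Of 6 repressor genes 4 were measured, each in 1 library alone. ZEB1 had 1.90 and 146 CPM, 75.5-fold higher (54.5 to 112), and ZEB2 had 0.863 and 95.9 CPM, 108-fold higher (67.3 to 199). SNAI2 was 4-fold higher (2.78 to 6.08) and SNAI1 6.35-fold lower (4.19 to 10.2). Whether these factors have a part in the values of the members was not tested.

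The labels of the libraries were read against marker genes. Of 7 pluripotency genes 6 were lower and SOX2 was not called. For 5 of the 6 lower genes only the hESC level met the filter, which left no room for a higher call. Of 9 neural progenitor genes 7 were higher, and SOX2 and NES were not called. For 4 of the 7 higher genes only the NPC level met the filter, so the direction of a call was fixed. Stromal genes moved with the same comparison, with 5 of 7 measured genes higher and 1 lower. The shares among all measured genes were 19.6% higher and 19.8% lower. For 3 of the 5 higher stromal genes only the NPC level met the filter, which left no room for a lower call. Summed levels of the stromal genes were 659 CPM in hESC and 976 CPM in NPC. The sum hides differences between genes. The largest parts in hESC were THY1 (267 and 23.5 CPM), COL1A1 (250 and 183 CPM) and COL1A2 (122 and 375 CPM). COL3A1 had 0.633 and 288 CPM, and DCN had 0.230 and 11.1 CPM. None of the 8 listed stromal genes was at 0 reads in either library. Their part in the values of the members was not tested.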

How the data were processed

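The files hold raw read counts per gene symbol, deposited by the authors as 1 column for each library. TopHat, edgeR and the build hg19 are named in the submitters' processing notes. How reads were counted, with which strand setting and annotation, is not given in the sources used here. Per the labels' protocols, 1.3 µg of total RNA went into each SMARTER mRNA-Seq library.

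Each file had 25737 rows. For 286 symbols on several rows the row with most summed reads was kept, and no member was among them. TMM factors (edgeR 4.0.16, R 4.3.3) were 0.884 (hESC) and 1.13 (NPC), computed across all genes. Point ratios used counts plus 0.5. Intervals are exact 95% Clopper-Pearson intervals on the part of each gene's reads that came from NPC, and cover counting error only, as PCR copies could not be removed by molecular identifiers. A count of 0 was set to a floor of 3 reads for a bound. Shares have exact binomial intervals. Lengths are those of the longest transcript in GENCODE 29, and no coordinates of the count files are given. Code was tested on simulated data, and used Python 3.11.15, pandas 2.3.3 and scipy 1.17.1.

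The members and lists were chosen with earlier results of these data known. Members at 5 CPM in either library were named, as were those with 20 reads in either, and the rest are given by number with some examples chosen after their values were seen. Some genes that these rules take are not reported here, but stay in the counts. From each related list up to 3 genes each way were named by the bound farthest from no change; other list genes, such as GRHL2, PARD3, MPP5, CTNNB1, CTNNA1, IVL, LOR and FLG, were chosen after their values were seen. Alternatives tried were scaling by library total, by DESeq2 1.42.0 size factors or by upper quartiles, filtering at 1 CPM, at 20 CPM or not at all, a 4-fold bound, point ratios without intervals, log2(CPM + 1), summing the rows of each symbol and a length correction (lowess, statsmodels 0.14.6).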

Additional observations from a re-analysis of the deposited data

How the results depend on the processing

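The count of lower members stayed within 1.5 times 18 under all 11 alternatives, from 13 with a filter of 20 CPM to 22 with a filter of 1 CPM or none. The count of higher members was 1 with a filter of 1 CPM and with none (CLDN18). The number of lower claudins was 2 with a filter of 20 CPM and 3 with a 4-fold bound, instead of 5. Among all measured genes the library total gave 1796 lower and 3679 higher calls instead of 2683 and 2649, as it shifts every log2 ratio by 0.36, and 17 members were then lower and 0 higher. With the library total the log2 ratio was 0.126 for KRT10 and 0.0912 for PKP4, and with the length trend removed it was 0.0772 for KRT10, all turned in direction and not called. Of the 26 measured members, 16 were measured with their direction and call kept under every alternative run. The filter of 20 CPM left out 8 members, 5 of them lower at 5 CPM (CLDN3, CLDN10, CLDN19, KRT7 and PKP3), and CLDN10, CLDN19 and TJP1 were not called with the 4-fold bound. No paired analysis was possible because each group has 1 library. Depth limits the low genes: a member under 5 CPM rested on fewer than 86.9 hESC and 136 NPC reads.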
